A study of Mus musculus with 6 samples.

Results

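Heat shock genes of the testis were compared between mice lacking Ttll5 (also named Stamp, tubulin tyrosine ligase-like 5) and wild-type (WT) mice. The set named 10 genes: the germ cell chaperones Hspa2, Hspa1l and Hspa4l, the stress-inducible chaperones Hsp90aa1, Hsph1 and Hspb1, the constitutive chaperones Hspa8 and Hspa5, and the heat shock factors Hsf1 and Hsf2. A gene was measured where at least 1 probe set carried its symbol and no other in the platform annotation, which held for 7 of the 10 genes, with 62 of the 188590 probe sets on the arrays. Measured were Hspa2, Hspa4l, Hsp90aa1, Hsph1, Hspa5, Hsf1 and Hsf2, among 15792 genes in all. Hspa1l was present only on probe sets shared with Hspa1a, and Hspa8 and Hspb1 were not analysed here.

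Total testis RNA was hybridised to 6 Affymetrix mouse exon arrays, 3 from WT and 3 from Ttll5/Stamp knockout (KO) males. Both groups were littermates matched for age and sex, on a mixed genetic background of C57BL/6, 129/SvEv and FVB/N, and no treatment separated them. The age of the mice, the construction of the knockout allele and whether an array held 1 animal or a pool were not stated in the labels, so the p-values reflect only the spread among the 6 arrays, part of which may be technical. The study's title gives malformed sperm and infertility as the outcome of the knockout, and the comparison asks which testis transcripts differ without the gene.

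Heat shock proteins of the HSP70 family bind unfolded stretches of other proteins and release them in a cycle driven by ATP, helped by J-domain proteins and by exchange factors such as the HSP110 proteins. Male germ cells make their own versions. Hspa2 appears in meiotic spermatocytes, where it supports the disassembly of the synaptonemal complex, Hspa1l in spermatids, and Hspa4l is an HSP110-type protein abundant in germ cells. The genes that heat induces are switched on through heat shock elements, inverted repeats of GAA bound by Hsf1, whereas the endoplasmic reticulum chaperone Hspa5 (BiP) answers to unfolded protein through ER stress elements. Hsf2 acts in development and in spermatogenesis more than in heat shock.

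Promoters of the classes were set side by side, since the set separates germ cell chaperones from stress-inducible and constitutive ones and from the heat shock factors. RefSeq promoters (GRCm38.p6) matched 7 of the 10 genes, and the 250 bases before each start were searched on both strands. In Hsph1, GAANNTTC or its mirrored form TTCNNGAA, a pair of heat shock units, began 33 bases before the more upstream of its annotated starts. Hspb1 held the pair as well, Hspa2, Hspa1l, Hspa4l, Hspa5 and Hsf2 did not, and 12.8% of 32851 promoters of the same length held it. The stricter run of 3 units, GAANNTTCNNGAA or its reverse complement TTCNNGAANNTTC, which contains the pair, was in 0.466% of promoters and in none of the members' promoters. The ER stress element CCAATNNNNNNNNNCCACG was found in Hspa5 alone among the 7, beginning 65 bases before its start, and in 0.113% of promoters. For a view of the chaperone classes, the 100 bases before the starts of measured genes are shown 5′ to 3′, with matches in capitals. No heat shock factor is shown. A match describes the letters and does not show that a factor binds there.
Hspa2, chr12:76404270-76404369, plus strand: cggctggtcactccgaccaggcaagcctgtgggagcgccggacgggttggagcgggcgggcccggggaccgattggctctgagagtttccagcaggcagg
Hspa4l, chr3:40745513-40745612, plus strand: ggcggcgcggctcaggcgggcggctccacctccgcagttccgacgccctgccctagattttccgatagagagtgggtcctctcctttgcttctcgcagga
Hsph1, chr5:149636337-149636436, minus strand: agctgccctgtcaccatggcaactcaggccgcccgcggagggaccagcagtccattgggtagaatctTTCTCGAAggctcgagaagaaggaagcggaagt
Hspa5, chr2:34771990-34772089, plus strand: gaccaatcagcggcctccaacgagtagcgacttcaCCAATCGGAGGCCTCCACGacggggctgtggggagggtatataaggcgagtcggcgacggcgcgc

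The deposited values are log2 probe set signals, and the 6 arrays had medians of 6.72 to 6.77 and lower quartiles of 4.59 to 4.67. As a check of the labels, Ttll5 read 11.16, 11.14 and 11.16 in WT against 9.58, 9.49 and 9.53 in KO (log2 gene values), a KO minus WT difference of -1.62 (SE 0.066, limma adjusted p = 4.3e-05). A level on such an array depends on the probes, so levels are compared between arrays and never between genes. Spermatocyte and spermatid genes were strongly detected, with Sycp3 at 11.17 and Prm1 at 12.30 in WT (log2, means of 3 arrays).

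None of the 7 measured heat shock genes passed the test between KO and WT testes. Over all genes limma called 11 at an adjusted p under 0.05, which is 0.0697% of 15792. No measured member reached an unadjusted p under 0.05 either, against 6.05% of all genes. In 6 of the 7 the KO mean was lower, as in 51.1% of all genes, with differences of -0.15 to 0.036 and a median of -0.055 (log2), beside a median of -0.0026 over all genes. With dim genes left out, the median over all remaining genes was -0.020. The shares over all genes and all probe sets given throughout include dim ones. In each of the 7 the KO and WT arrays overlapped, whereas they did not overlap in 11.2% of all genes. The 95% intervals of the 6 genes other than the dim Hsp90aa1 reached from 78.2% to 118% of the WT signal.

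**Figure D1:**
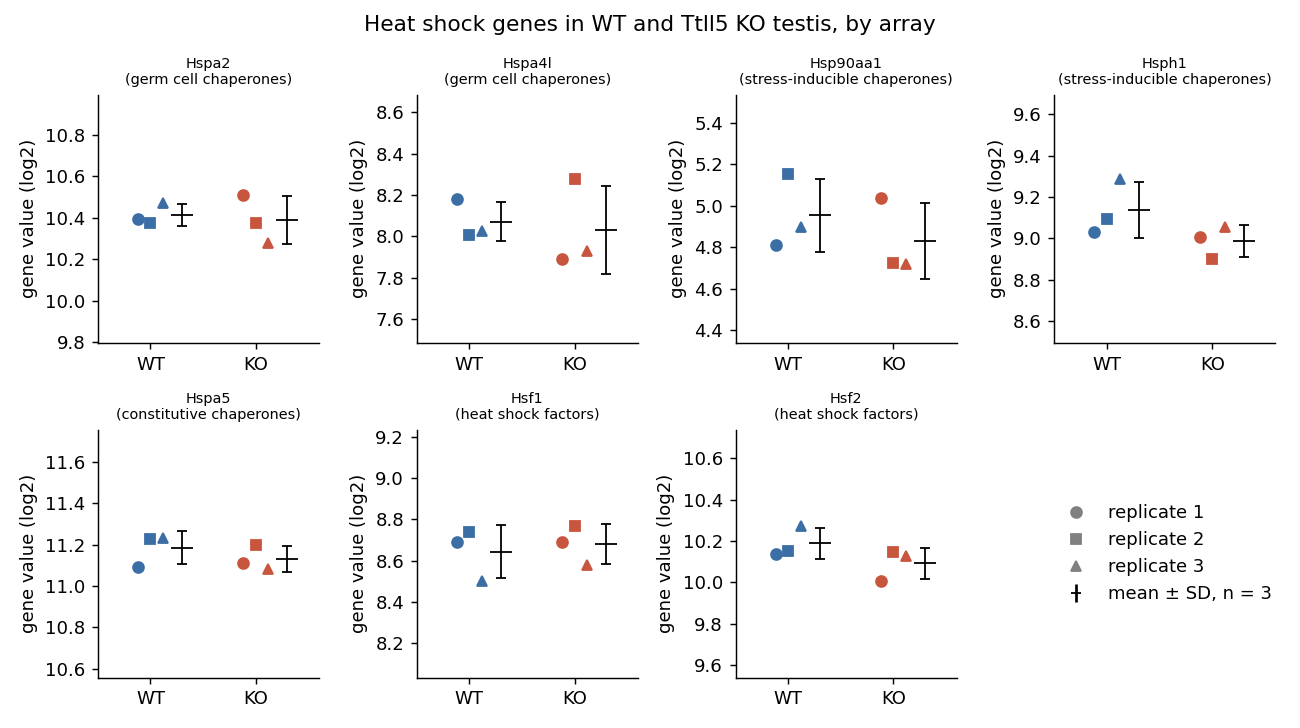
Gene values (log2, mean over probe sets) of the 7 measured heat shock genes, 1 panel per gene with its class, for 3 WT (blue) and 3 KO (red) arrays; the symbol gives the replicate and the black bar the mean ± SD. Each panel spans the same range of log2 units, and in every panel the groups overlap.

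Among the germ cell chaperones, Hspa2 had gene values of 10.39, 10.37 and 10.47 in WT against 10.51, 10.37 and 10.28 in KO (log2, mean of 5 probe sets). The highest and the lowest of these 6 values both came from KO testes. The means were 10.41 ± 0.053 and 10.39 ± 0.12 (SD, n = 3 each), a difference of -0.025 with a limma 95% interval of -0.21 to 0.16 (adjusted p = 0.99). In linear terms that interval runs from 86.3% to 112% of the WT signal. Hspa2 lies on chromosome 12, as Ttll5 does, in RefSeq's GRCm38.p6.

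Single probe sets of Hspa2 stayed close together with 1 exception. That probe set read 12.16, 12.14 and 12.20 in WT against 11.90, 11.99 and 11.81 in KO (log2), a difference of -0.27 (SE 0.11, limma unadjusted p = 0.046, adjusted p = 0.93 over all probe sets). All 3 KO arrays lay below all 3 WT arrays, a pattern found in 5.27% of all probe sets. The other 4 differed by 0.0080 to 0.066, all with overlapping groups, among them the brightest at 13.36 in WT against 13.37 in KO. The order of the probe sets along the transcript is unknown here.

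Hspa4l, the HSP110-type germ cell protein, had gene values of 8.18, 8.01 and 8.02 in WT against 7.89, 8.28 and 7.93 in KO (log2, mean of 3 probe sets). KO 2 stood above every WT array and the other 2 KO arrays below them. The difference was -0.039 with a 95% interval of -0.30 to 0.22 (limma adjusted p = 0.99). Its 3 probe sets did not carry equal spread. The brightest was steady at 11.36, 11.39 and 11.37 in WT and slightly lower at 11.27, 11.25 and 11.35 in KO. Its groups did not overlap, as in the 5.27% of all probe sets wholly lower in KO, and the difference was -0.082 (limma adjusted p = 0.99). The dimmest ran from 5.83 to 6.85 over the 6 arrays with both ends in KO, the widest spread of the 3.

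Hspa1l, the spermatid HSP70, could be seen only through 3 probe sets that the annotation gives to Hspa1l and Hspa1a together, which lie outside the rule and cannot tell the genes apart. Their mean read 12.10, 12.18 and 12.16 in WT against 12.20, 12.04 and 12.14 in KO (log2). The groups overlapped and the difference was -0.021 (limma adjusted p = 0.99 when these probe sets were added to the fit). All 3 lay above the upper quartile of every array. The 3 probe sets of Hspa1a alone, the heat-inducible HSP70, were dim. The first read 3.90 to 4.28 over the 6 arrays, below every array's lower quartile, the second 5.45 to 5.90, and the third 4.17 to 5.41, below the lower quartile on 2 arrays. Hspa1a as a gene stood at 4.73 ± 0.20 in WT against 4.93 ± 0.077 in KO, a difference of 0.19 with a 95% interval of -0.053 to 0.44 (limma adjusted p = 0.87).

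Hsph1, the stress-inducible HSP110, gave the largest difference in size of the 7 and did not pass. It read 9.03, 9.09 and 9.29 in WT against 9.004, 8.90 and 9.06 in KO (log2, mean of 19 probe sets). The highest KO array lay just above the lowest WT array, and WT 3 was the highest of all. The difference was -0.15 (SE 0.089) with a 95% interval of -0.35 to 0.054 (limma unadjusted p = 0.13, adjusted p = 0.88), or 78.2% to 104% of the WT signal.

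The 19 probe sets of Hsph1 leaned the same way without any passing the test over all probe sets, which called 0.0382% of 188590. Of the 19, 15 were lower in KO, as were 49.9% of all probe sets, with differences of -0.54 to 0.11 and a median of -0.17. In 5 of them all KO arrays lay below all WT arrays, where 5.27% of all probe sets did so, and 2 had an unadjusted limma p under 0.05, where 5.36% of all probe sets had one. The one with the largest difference read 7.68, 8.09 and 8.16 in WT against 7.36, 7.51 and 7.45 in KO, a difference of -0.54 (SE 0.16, limma unadjusted p = 0.0099, adjusted p = 0.86). The other of these 2 read 11.17, 11.11 and 11.27 in WT against 10.86, 10.99 and 10.88 in KO, a difference of -0.28 (limma unadjusted p = 0.044, adjusted p = 0.92). Probe sets of 1 gene read the same RNA samples, so their number adds no replicates.

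**Figure D2:**
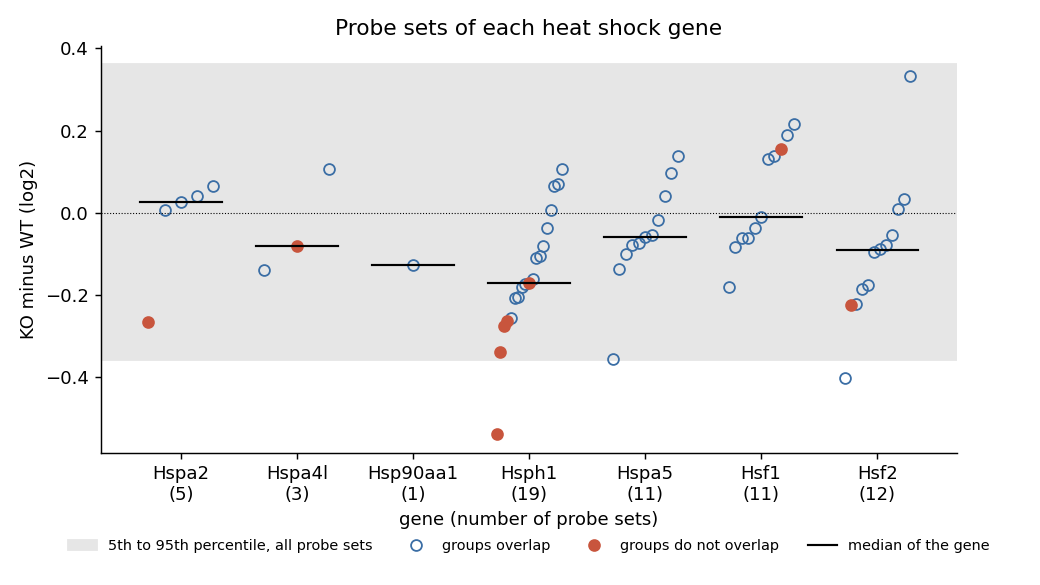
KO minus WT difference (log2) of each probe set of the 7 measured genes, ordered within each gene; filled red points are probe sets whose groups do not overlap, black bars the median of the gene, and grey the 5th to 95th percentile of all probe sets (-0.36 to 0.36). Hsph1, with 19 of the 62 probe sets, holds 5 of the 9 filled points and the lowest value, -0.54. Of all probe sets, 5.27% lay wholly lower and 4.97% wholly higher in KO.

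Hsp90aa1, the inducible form of HSP90 and abundant in germ cells, was read by 1 dim probe set. It stood at 4.81, 5.15 and 4.90 in WT against 5.04, 4.72 and 4.72 in KO (log2), not far above the arrays' lower quartiles of 4.59 to 4.67. KO 1 lay above 2 of the WT arrays and the other KO arrays below all of them. The difference was -0.13 with a 95% interval of -0.40 to 0.15 (limma adjusted p = 0.95), the widest of the 7 intervals. The probe set is not shown to be above background, so this value bounds no change of the transcript. Hsp90aa1 lies on chromosome 12 as well. Its constitutive near copy Hsp90ab1, with 8 probe sets, stood at 10.65 ± 0.022 in WT against 10.64 ± 0.088 in KO, a difference of -0.015 with a 95% interval of -0.18 to 0.15 (limma adjusted p = 0.99).

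Of the constitutive chaperones, Hspa5, the HSP70 of the endoplasmic reticulum, was measured by 11 probe sets. Its gene values were 11.09, 11.23 and 11.23 in WT against 11.11, 11.20 and 11.08 in KO (log2). All 6 fell within a narrow band in which WT 1 sat among the KO arrays. The difference was -0.055 with a 95% interval of -0.23 to 0.12 (limma adjusted p = 0.97), or 85.4% to 109% of the WT signal. Probe set differences ran from -0.36 to 0.14, with 8 lower and 3 higher in KO, and in none of them did the groups separate. The lowest read 9.17, 9.49 and 9.54 in WT against 8.85, 9.51 and 8.76 in KO, where KO 2 lay among the WT arrays.

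The heat shock factors differed in sign. Hsf1, the main regulator of the heat response, read 8.69, 8.74 and 8.50 in WT against 8.69, 8.77 and 8.58 in KO (log2, mean of 11 probe sets). Its difference was 0.036 with a 95% interval of -0.17 to 0.24 (limma adjusted p = 0.99), and 5 of its probe sets were higher and 6 lower. In 1 of them the KO arrays, at 9.85, 9.84 and 9.85, lay above the WT arrays at 9.75, 9.78 and 9.55, a difference of 0.15 (limma adjusted p = 0.97), a pattern found in 4.97% of all probe sets. WT 3 was the lowest array both for that probe set and for the gene.

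Hsf2 read 10.14, 10.15 and 10.27 in WT against 10.01, 10.14 and 10.13 in KO (log2, mean of 12 probe sets). The groups overlapped only slightly, KO 2 standing just above the lowest WT array. The difference was -0.096 (SE 0.076) with a 95% interval of -0.27 to 0.079 (limma unadjusted p = 0.24, adjusted p = 0.93). Of its 12 probe sets 9 were lower in KO, with a range of -0.40 to 0.33. The top of that range was a dim probe set at 4.60 in WT against 4.94 in KO. In 1 probe set the groups separated, with 10.63, 10.58 and 10.99 in WT against 10.49, 10.53 and 10.51 in KO, a difference of -0.22 (limma adjusted p = 0.96). Every KO array lay below every WT array in 5.27% of all probe sets.

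**Figure D3:**
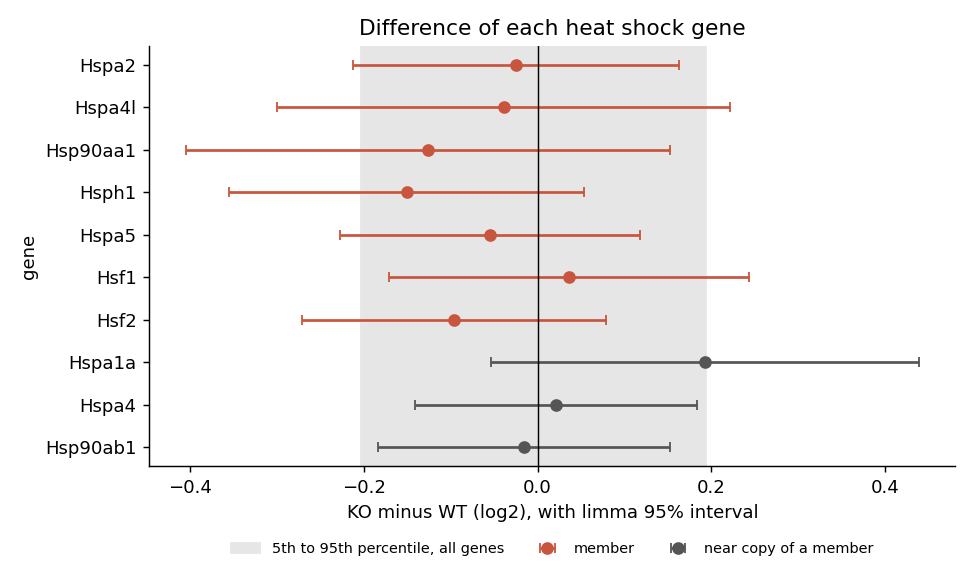
KO minus WT difference (log2) with its limma 95% interval for the 7 measured members (red) and 3 near copies, Hspa1a, Hspa4 and Hsp90ab1 (grey points), over the 5th to 95th percentile of all genes (-0.20 to 0.19, grey band). Every interval includes 0 and every point lies within the band.

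Set by class, the mean of the germ cell chaperones Hspa2 and Hspa4l was 9.29, 9.19 and 9.25 in WT against 9.20, 9.33 and 9.10 in KO (log2). That of the stress-inducible Hsph1 and Hsp90aa1 was 6.92, 7.12 and 7.09 in WT against 7.02, 6.81 and 6.89 in KO, and that of the factors 9.42, 9.45 and 9.39 against 9.35, 9.46 and 9.35. The groups overlapped in each class. The median differences were -0.032 for the germ cell class, -0.14 for the stress-inducible class, where 1 of the 2 genes is the dim Hsp90aa1, -0.055 for Hspa5 alone and -0.030 for the factors. With 1 or 2 genes in a class these are descriptions, and the difference between classes was not tested.

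Over all 62 probe sets of the 7 genes, 42 (67.7%) were lower in KO, against 49.9% of all probe sets. Of the 62, 8 (12.9%) had every KO array below every WT array, against 5.27% of all probe sets. Hsph1, with 19 of the 62 probe sets, held 5 of the 8. An unadjusted p under 0.05 was reached by 3 (4.84%), near the 5.36% of all probe sets. The median difference was -0.078. Of the 62 probe sets, 54 lay above the median of every array, whereas the shares over all probe sets include dim ones.

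The wider chaperone network gave no called gene. Of 111 further genes listed, 95 were measured, with KO values above WT in 36 and below in 59 and a median difference of -0.038, and limma called 0 of the 95 at an adjusted p under 0.05. An unadjusted p under 0.05 was reached by 4 (4.21%), below the 6.05% of all genes. The groups did not overlap in 12 of them, 11 lower and 1 higher, where 6.67% and 4.53% of all genes lay wholly below or above.

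The network gene with the smallest p was Hspb8, a small heat shock protein that works with Bag3 in the removal of misfolded protein. It read 4.70, 4.70 and 4.96 in WT against 5.25, 5.46 and 5.27 in KO (log2, 4 probe sets). The KO arrays all lay above the WT arrays. The difference was 0.54 (SE 0.10, limma unadjusted p = 0.00063, adjusted p = 0.29), and it did not pass. Its levels lie below the median of every array, and those in WT not far above the lower quartiles of 4.59 to 4.67. Its probe sets are not shown to be above background. Of the 9 listed small heat shock proteins measured, which include Hspb8 itself and Odf1, also an elongating spermatid marker, 5 had higher and 4 lower values with a median of 0.081.

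None of the genes that work directly on HSP70 and HSP90 passed. Of 23 J-domain proteins, which stimulate the ATPase of HSP70, 16 had lower values (median -0.051, range -0.25 for Dnajb7 to 0.26 for Dnaja1), Dnajc1 at -0.12 and Dnajc7 at -0.095 among those with separated groups. Of 9 nucleotide exchange factors 3 had lower values (median 0.0051), and the mitochondrial Grpel1 stood at -0.19 (limma unadjusted p = 0.046, adjusted p = 0.81). Of 15 HSP90 co-chaperones 12 had lower values (median -0.081), with Ahsa2 at -0.17 (limma unadjusted p = 0.042, adjusted p = 0.81) and St13, which links HSP70 and HSP90, at -0.11 (adjusted p = 0.88). The highest of the co-chaperones was Unc45a, a myosin chaperone, at 0.31 (limma adjusted p = 0.87). Dnajb7, Dnaja1 and Unc45a are named as ends of their lists, chosen after their values were seen, and their groups overlapped.

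All 7 chaperonin subunits measured, parts of the ring that folds actin and tubulin, had lower values, from -0.13 to -0.015 with a median of -0.075, where 51.1% of all genes were lower. The groups separated in Cct8 (-0.091) and Cct5 (-0.068), a pattern of 6.67% of all genes, and neither passed (limma adjusted p = 0.92 and 0.95). Of 17 endoplasmic reticulum and unfolded protein response genes 10 had higher and 7 lower values, with a median of 0.013. Calr3, the testis form of calreticulin, stood at -0.17 (limma unadjusted p = 0.049, adjusted p = 0.83) and the disulphide isomerase Pdia6 at -0.12 (adjusted p = 0.88). Pdia6 lies on chromosome 12, as Ttll5 does. The HSP70 relatives other than the members split evenly, 4 higher and 4 lower of 8 (median -0.025), with Hspa4, the close relative of Hspa4l, at 0.022 (95% interval -0.14 to 0.18) and Hspa13 at -0.094. The 3 other HSP90 genes and 3 of 4 other heat shock factors and binding proteins had lower values (medians -0.041 and -0.029).

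Markers of the testis cell types, measured on the same arrays, are given beside these values. In bulk testis RNA, fewer cells of a type and less RNA per cell cannot be told apart. Values in KO were lower in 7 of 7 spermatocyte markers (median -0.13), 7 of 8 round spermatid markers (-0.091), 7 of 8 elongating spermatid markers (-0.067) and 6 of 7 spermatogonial markers (-0.12), where 51.1% of all genes were lower. Sycp3 differed by -0.16 (limma adjusted p = 0.84) and Prm1 by -0.14 (adjusted p = 0.87). The mean round spermatid level was 11.08 to 11.14 in WT against 10.98 to 11.05 in KO, with every KO array below every WT array. The mean levels overlapped between the groups for spermatocytes (10.12 to 10.25 against 10.06 to 10.14), elongating spermatids (12.66 to 12.73 against 12.61 to 12.68) and spermatogonia (7.18 to 7.32 against 7.07 to 7.20). The 7 members differed by -0.15 (Hsph1) to 0.036 (Hsf1), among them the germ cell chaperones Hspa2 at -0.025 and Hspa4l at -0.039. The part of the markers in the members' values was not tested.

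Leydig cell markers had higher values in 7 of 7 (median 0.35, mean level 8.98 to 9.36 in WT against 9.48 to 9.59 in KO). Macrophage and leukocyte markers did in 6 of 8 (median 0.12, mean level 5.36 to 5.51 in WT against 5.55 to 5.62 in KO). In both lists the mean level of every KO array lay above that of every WT array. How often the mean of such a list separates the groups was not tested. Sertoli cell markers had a median of 0.016, peritubular myoid markers of 0.056, and blood and endothelial markers of -0.026. The immediate early genes, which stress and growth signals induce within minutes, had higher values in 11 of 11 (median 0.77). Their mean level was 5.82 to 6.12 in WT against 6.48 to 6.91 in KO. The groups separated in each gene, where 4.53% of all genes lay wholly above. Fos, at 0.94, is named for its place on chromosome 12, where Ttll5 lies. limma called none of these 76 marker genes, and 20 (26.3%) had an unadjusted p under 0.05, against 6.05% of all genes. Of the 20, 11 were immediate early genes and 4 Leydig cell markers. The lists were chosen with earlier results of these data known, so this pooled share is no test. The measured genes described above as heat- or stress-inducible stood at 0.19 for Hspa1a, -0.15 for Hsph1 and -0.13 for Hsp90aa1. None of them separated the groups. The network lists also hold Dnajb1 at -0.13, Dnaja1 at 0.26, Bag3 at 0.070 and Hspb8 at 0.54, of which Hspb8 alone separated the groups. Hspa1a and Hsp90aa1 rest on dim probe sets. With 1 array left out, the Hspa1a difference ran from 0.087 without WT 3 to 0.29 without WT 1. It was 0.35 with the median over its probe sets. With the bright probe sets shared with Hspa1l added, which cannot tell the genes apart, it was 0.086. Whether sample handling has a part in either set was not tested.

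**Figure D4:**
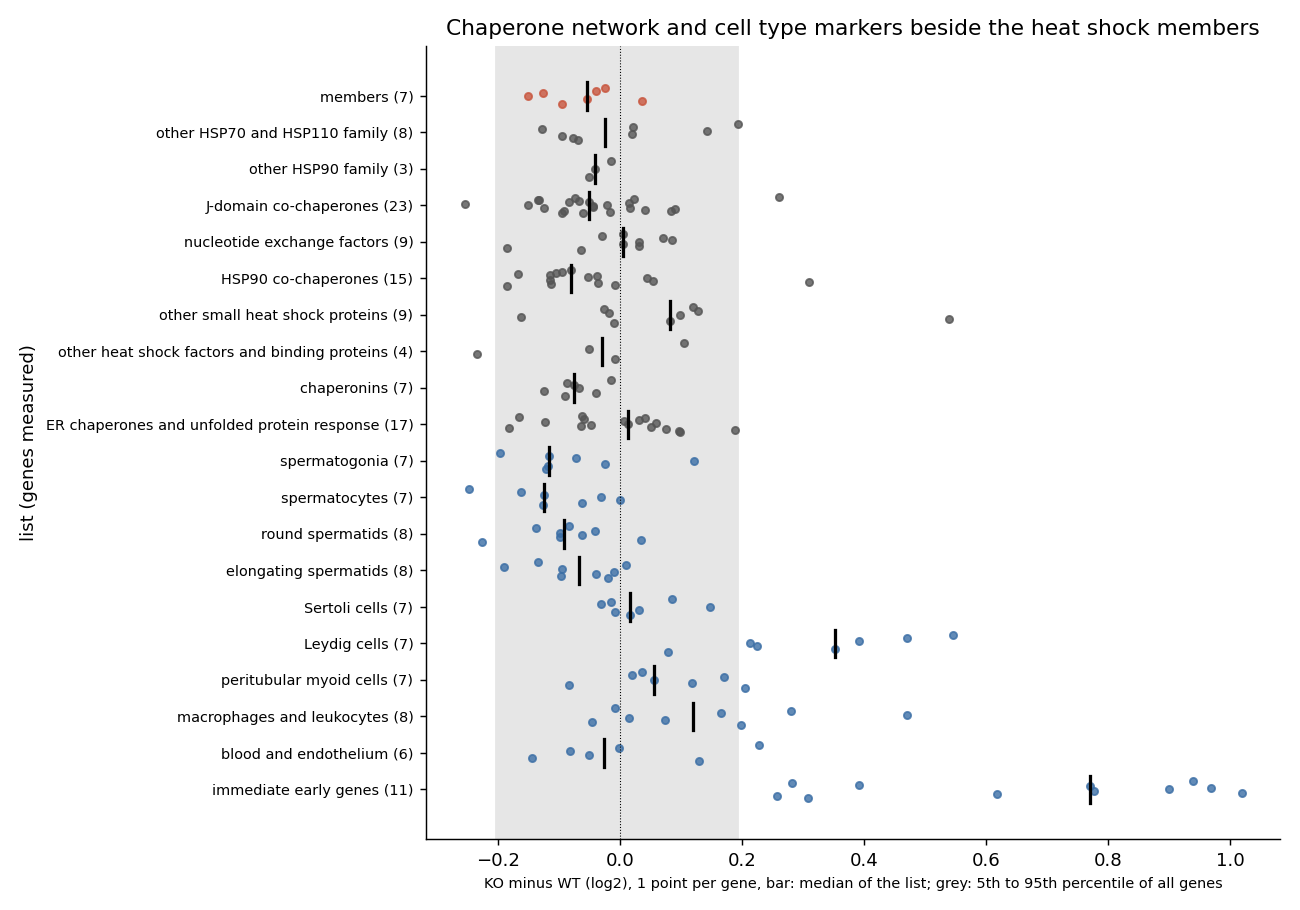
KO minus WT difference (log2) of every measured gene, 1 point per gene, for the 7 members (red), 9 lists of the chaperone network (dark grey) and 10 marker lists (blue), with the median of each list as a bar and the 5th to 95th percentile of all genes in light grey. The members lie between -0.15 and 0.036, and the largest list median is that of the immediate early genes, 0.77.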

How the data were processed

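Per the labels, biotin-labelled target was made from Trizol extracts of testis RNA. The submitters' processing notes name RMA and Partek 6.5 without their roles. The authors deposited log2 probe set values, used here without further normalization, pseudocount or filter; such normalization hides a change shared by most genes. The platform annotation gave 1 symbol to 179163 probe sets, several to 1322 and none to 8105. A gene's value is the mean of its probe sets of 1 symbol. The KO minus WT difference was fitted with limma 3.58.1 under R 4.3.3 (lmFit, eBayes, two-sided, no covariates), on all 15792 genes and on all 188590 probe sets, with Benjamini-Hochberg adjustment over each whole table and calls at 0.05. The smallest p of an exact permutation test is 0.1 for 3 against 3. On simulated arrays with 15792 genes, the gene test recovered 78% of genes shifted by 0.5 and 99% of those shifted by 1 (log2), with 20 false calls. The simulated noise was independent between genes, and more genes were shifted than the 11 called on the real arrays. These shares therefore do not carry over to the real arrays. There Hspb8 at 0.54 and the immediate early genes, with a median of 0.77, were not called. All members were named; in each network list, called genes, or else up to 2 with the smallest p and separated groups, beside Hspa1a, Hspa4 and Hsp90ab1 as near copies and Sycp3 and Prm1 as stage markers. Of the list genes, 5 were matched through an older symbol. Members and lists were chosen with earlier results of these data known. Promoters came from RefSeq (GRCm38.p6). Replicate numbers were not treated as pairs in the main fit.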

Additional observations from a re-analysis of the deposited data

How the results depend on the processing

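The number of members called was 0 of 7 genes and 0 of 62 probe sets, and that of network genes 0 of 95, and each count stayed at 0 under every alternative run for it: the median over probe sets, probe sets with several symbols, filters on dim probe sets and dim genes at the 40th percentile (which left out Hsp90aa1), quantile normalization, median centring, trended and robust moderation, array weights, the replicate block, each array left out, and a term for WT 1, KO 2 and KO 3, whose lower quartiles were highest, chosen after seeing the data. Over the same alternatives limma called 5 to 20 of all genes. Hsph1, Hspa5 and Hsf2 kept a negative sign throughout. Hsph1 ranged from -0.20 (without WT 1) to -0.075 (without WT 3), so its size leaned on WT 3. Hsf2 ranged from -0.23 to -0.052 and Hspa5 from -0.10 (without WT 1) to -0.030 (without WT 3 or KO 3). The dim Hsp90aa1 ranged from -0.23 without KO 1 to -0.026 without WT 2. The sign turned for Hspa4l with the median over probe sets (0.038), and with the array term for Hspa2 (0.011) and Hsp90ab1 (0.015); the cause was not tested. With 1 array left out Hspa2 ranged from -0.087 to 0.030, Hspa4l from -0.16 to 0.032, Hsf1 from -0.036 to 0.087, Hspa4 from -0.0052 to 0.058 and Hsp90ab1 from -0.064 to 0.021, none passing. With the median over probe sets Ahsa2 stood at -0.34, Dnajc1 at -0.25, Dnajc7 at -0.17, Grpel1 at -0.28 and Sycp3 at -0.086. Without KO 1 Cct8 stood at -0.052 and Cct5 at -0.043, without WT 3 Hspa13 at -0.050 and without WT 2 Pdia6 at -0.076. Hspb8, which both filters on dim features left out, stood at 0.47 to 0.63 under the other alternatives, with adjusted p-values of 0.195 or more. With the replicate block the count of called members was 0. Same-numbered arrays correlated at -0.17, 0.072 and 0.18 in their deviations, so the numbers were not taken as pairs, though 3 such values cannot exclude a pairing. Only 3 arrays per group limit the precision, and dim probe sets such as that of Hsp90aa1 bound no change.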
